A study of Mus musculus with 36 samples.

Results

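The RNA levels of 9 genes of lipoprotein lipolysis were described in visceral white adipose tissue (visWAT) and liver: Angptl4, Angptl6, Angptl8, Lpl, Lipc, Gpihbp1, Lmf1, Vldlr and Lrp1. They form a fixed list of gene names, and all 9 were found among the 56748 genes of the expression table. The samples came from 18 male C57BL/6J mice that were 16 weeks old when feeding on normal chow (NCD) or a diet high in fat (HFD) began, and feeding went on for 16 weeks. In MlklAdi-KO mice both copies of Mlkl were flanked by loxP sites and Cre was expressed in mature adipocytes, so the deletion was confined by design to these cells and liver kept its Mlkl. WT mice were littermates with the same loxP-flanked alleles and no Cre. Tissue, genotype and diet gave 8 groups, of 4 mice each on NCD and 5 each on HFD, and every mouse gave 1 library of either tissue, 36 in all. Whether the mice had been fed or fasted when tissue was taken is not given in the sources used here.

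Lipoproteins carry triglyceride in blood, and lipoprotein lipase (LPL) releases fatty acids from them at the capillary wall of adipose tissue, muscle and heart. LPL is folded with the help of LMF1, is carried across endothelial cells and held on their surface by GPIHBP1, and is inhibited by angiopoietin-like (ANGPTL) proteins. ANGPTL4 is best known for lowering LPL activity in adipose tissue during fasting, and ANGPTL8 is made in liver and fat after feeding. What remains of the particle is handled further by hepatic lipase (LIPC) and taken up by receptors such as VLDLR and LRP1.

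Libraries held 20875463 to 30322171 reads assigned to genes. Levels are given as deposited FPKM, the fragments on a gene scaled by its length and by a library size. Adipoq, the adipocyte hormone adiponectin, lay between 743 and 1995 FPKM in visWAT and at no more than 2.70 in liver, and Alb, the hepatocyte product albumin, was at 25146 FPKM or more in liver. In visWAT, Mlkl was at 2.32, 2.39, 2.55, 2.68 and 2.72 FPKM in MlklAdi-KO and 4.58, 4.88, 5.19, 5.50 and 6.28 in WT mice on HFD. On NCD it was at 1.96, 2.10, 2.20 and 2.49 FPKM in MlklAdi-KO and 2.29, 3.91, 4.63 and 5.11 in WT mice. The value of 2.29 belongs to the library labelled WT NCD mouse 182, which lay within the MlklAdi-KO range against its label. In the visWAT library of WT NCD mouse 183, 5 seminal vesicle markers summed to 247986 FPKM, against at most 327 in every other library. Results that rest on these mice are given with and without them.

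Differences are given on the scale of log2(FPKM + 1), with their standard error (SE) and a limma p-value adjusted over all genes tested in that comparison, and a call is an adjusted p under 0.05. Diet and genotype comparisons share mice, so their values are not independent. In bulk tissue, fewer cells of a type and less RNA per cell cannot be told apart.

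Angptl8 lies on chromosome 9 from 21746806 to 21748643 on the plus strand (mm39). It sits inside Dock6, which runs on the opposite strand, and the pair share no annotated exonic base. The 250 bases before its start, from RefSeq on GRCm38.p6 (chr9:21835260-21835509, plus strand), are shown because Angptl8 was the member with the largest liver difference between genotypes on HFD, with capitals on a perfect inverted repeat found by a search of this window.
Angptl8: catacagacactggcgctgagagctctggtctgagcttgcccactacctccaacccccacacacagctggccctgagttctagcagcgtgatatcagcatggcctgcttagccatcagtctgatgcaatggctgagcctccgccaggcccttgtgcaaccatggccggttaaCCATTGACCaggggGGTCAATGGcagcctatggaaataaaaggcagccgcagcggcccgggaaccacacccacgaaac
The 2 arms of 9 bases are separated by 5 bases and span positions -78 to -56 from the start. A perfect inverted repeat with arms of at least 9 bases and up to 20 bases between them was found in 4.56% of the 32851 promoter windows of this length. On either strand, the window held the C/EBP-type motif TTGNNCAA at position -100, which is present in 5.65% of all windows, and held neither the E-box CACGTG (6.02% of windows) nor the FOXO motif TGTTTAC (3.17%), the half-site AGGTCA (14.02%), CCAAT (33.85%) or TATAAA (12.37%). These are matches of letters in this window and not measured sites of binding. RefSeq windows were matched for 6 members, in 8 sequences, and not for Angptl4, Lpl and Gpihbp1.

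In liver, Angptl8 was 4.88-fold lower on HFD than on NCD in WT mice and was not called changed by diet in MlklAdi-KO mice. The 4 WT mice on NCD had 90.1, 92.3, 149 and 163 FPKM, and the 5 WT mice on HFD had 17.5, 21.1, 23.5, 30.4 and 34.4. Every WT mouse on HFD was below every WT mouse on NCD. The difference was -2.23 (SE 0.24, adjusted p = 0.000298), and it lay between -2.36 and -2.08 when each mouse was left out in turn. Without WT NCD mouse 182 it was -2.12 (adjusted p = 0.000533).

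MlklAdi-KO livers had 38.8, 54.8, 159 and 163 FPKM on NCD and 35.9, 109.8, 114, 122 and 226 on HFD. Both MlklAdi-KO groups were spread widely and overlapped each other, with mouse 151 highest and mouse 156 lowest on HFD. The diet difference was 0.27 (SE 0.56, adjusted p = 0.769).

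Marker sums of cell types also differed by diet in liver. The sum of 6 hepatocyte markers was 51622 to 60985 FPKM on NCD and 37899 to 43380.0 on HFD in WT livers, and 57278 to 62504 and 40511 to 50218 in MlklAdi-KO livers, without overlap in either genotype, while of the 6 markers 1 was called higher and 2 lower in each. The sum of 8 adipocyte markers was 10.1 to 30.7 FPKM on NCD and 96.7 to 163 on HFD in WT livers, and 8.32 to 32.3 and 15.2 to 125 in MlklAdi-KO livers. Adipoq was at no more than 2.70 FPKM in any liver, so the sum there came mostly from other genes of the list. Cidec, Fabp4 and Plin1 of this list are also in the list of PPAR targets below. In liver the sum can therefore not be read as a measure of adipocytes alone. Of the 4 adipocyte markers tested, 3 were called higher on HFD in WT and 2 in MlklAdi-KO livers, where 25.3% and 22.2% of all genes were called in either direction. The part of these marker sums in the liver differences of Angptl8, Angptl4, Lpl and Gpihbp1 was not tested.

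On HFD, all 5 MlklAdi-KO livers were above all 5 WT livers, with means of 122 ± 68.1 and 25.4 ± 6.90 FPKM (SD, n = 5), a ratio of 4.80. The lowest MlklAdi-KO liver, mouse 156, was at 35.9 FPKM beside a highest WT value of 34.4. Groups did not overlap for 2.62% of the genes tested in this comparison. The difference of 2.04 (SE 0.40) did not pass the threshold in limma (adjusted p = 0.0868). It passed on the recovered reads in edgeR (2.26, adjusted p = 0.047) and DESeq2 (2.26, adjusted p = 6.16e-05), and in limma without mouse 156 (2.42, adjusted p = 0.00811). That was the only 1 of the 10 limma fits without 1 mouse to pass, with values of 1.77 to 2.42 and adjusted p of up to 0.191. It was also not called by limma with a pseudocount of 0.1, without a filter or with a mean FPKM of 1. The same held on the TPM scale and with all 4 groups in 1 fit. On NCD the genotypes overlapped and differed by -0.46 (SE 0.48, adjusted p = 0.996). The test of whether the diet difference itself differed between genotypes gave 2.50 (SE 0.66, adjusted p = 0.266) and did not pass the threshold. The order of the group means in liver, from low to high, was WT HFD, MlklAdi-KO NCD, MlklAdi-KO HFD and WT NCD, and the last 3 overlapped one another.

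In visWAT, Angptl8 was lower than in liver and was not called by limma for diet or genotype. WT mice had 5.32, 6.37, 17.5 and 98.2 FPKM on NCD and 4.93, 5.33, 7.16, 10.5 and 13.1 on HFD. The value of 98.2 is mouse 182, and the other NCD mice lay within or near the HFD range. MlklAdi-KO mice had 6.32, 7.42, 8.77 and 20.7 FPKM on NCD and 7.07, 9.78, 11.1, 15.1 and 24.8 on HFD, with overlapping groups. The diet difference was -0.98 (SE 0.74, adjusted p = 0.325) in WT and 0.33 (SE 0.39, adjusted p = 0.522) in MlklAdi-KO mice, and without mice 182 and 183 the former was -0.43 (adjusted p = 0.44). DESeq2 called the WT difference with all mice (-2.01, adjusted p = 0.0463). On HFD, the genotypes differed by 0.63 (SE 0.33, adjusted p = 0.272).

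**Figure D1:**
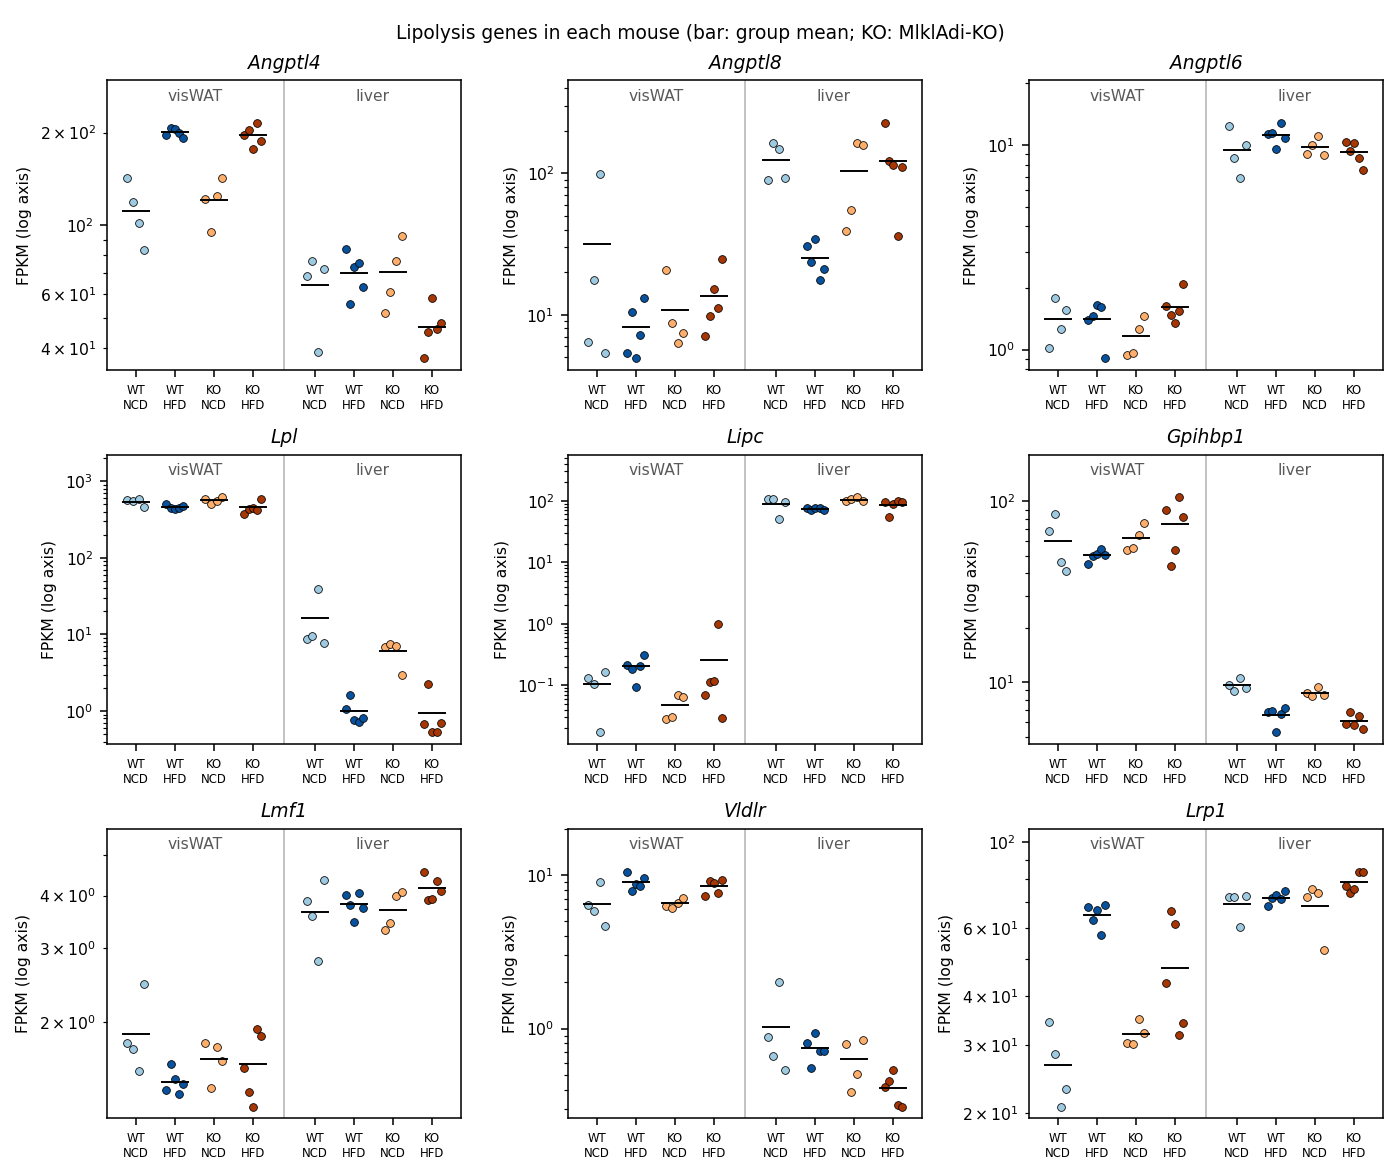
FPKM of the 9 genes in each mouse, on log axes, with visWAT on the left and liver on the right of each panel; points are mice, bars are group means and KO stands for MlklAdi-KO. Liver Angptl8 of the 5 WT mice on HFD ranges from 17.5 to 34.4 FPKM, below every other liver, and liver Lpl on HFD sits below every NCD liver.

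Dock6, the gene around Angptl8, was at 5.21, 5.21, 5.35 and 6.56 FPKM in WT livers on NCD and 3.28, 3.82, 3.98, 4.35 and 4.50 on HFD. It fell by 0.40 (SE 0.09, adjusted p = 0.0109) with HFD in WT and by 0.46 (SE 0.09, adjusted p = 0.00744) in MlklAdi-KO livers. On HFD the genotypes differed for Dock6 by -0.14 (SE 0.08, adjusted p = 0.485). The strand setting of the counting is not given in the sources used here, so intronic Dock6 reads that fall on Angptl8 exons cannot be told apart from Angptl8 reads.

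Angptl8 was set beside genes known to respond to feeding. Of 12 fed-state genes of lipogenesis and glucose use, all 12 were tested in WT liver, where 4 were called higher and 6 lower on HFD, with 25.3% of all genes called in either direction. Srebf1, a transcription factor of lipogenesis, rose by 0.97 (adjusted p = 0.0041), while Scd1, a fatty acid desaturase, fell by 1.39 (adjusted p = 0.000679) and Pnpla3, a lipid droplet protein, fell by 2.02 (adjusted p = 0.00704). The median difference of the list was -0.71, beside -0.001 over all genes. Of 10 fasted-state genes tested in WT liver, 2 were called higher and 4 lower, among them Cpt1a, which brings fatty acids into mitochondria (rose by 0.81, adjusted p = 0.000164), Ppargc1a, a coactivator of gluconeogenic genes (fell by 1.09, adjusted p = 0.000228), and Igfbp1, an insulin-repressed binding protein (fell by 1.66, adjusted p = 0.00119). Both lists held genes called in either direction.

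Between genotypes on HFD in liver, 0 of 11 fed-state genes and 2 of 10 fasted-state genes were called, with 0.197% of all genes called. Both were lower in MlklAdi-KO mice, Igfbp1 at -1.49 (SE 0.23, adjusted p = 0.0401) and Lpin1, a phosphatidate phosphatase, at -1.48 (SE 0.20, adjusted p = 0.0171). The median difference was -0.27 for the fed-state and -0.19 for the fasted-state genes, beside 0.002 over all genes.

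**Figure D2:**
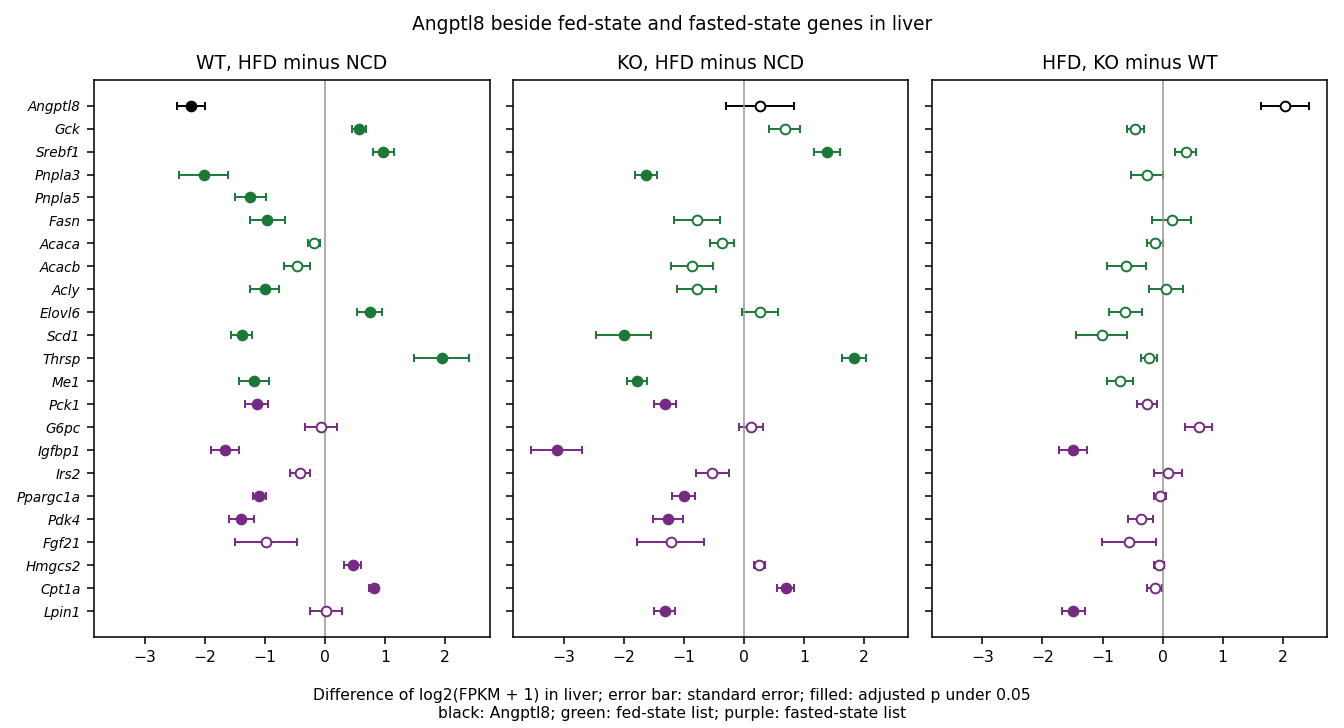
Differences of log2(FPKM + 1) in liver with standard errors for Angptl8 (black), fed-state genes (green) and fasted-state genes (purple), filled where the adjusted p was under 0.05. Angptl8 lies at -2.23 for diet in WT mice and at 2.04 for genotype on HFD, while genes of both lists lie on either side of 0 for diet.

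Angptl4, the adipose LPL inhibitor and a target of PPAR transcription factors, was higher on HFD in visWAT of both genotypes. It lies on chromosome 17 from 33992724 to 34000804 on the minus strand. WT visWAT had 83.1, 102, 119 and 142 FPKM on NCD and 193, 196, 199.7, 206 and 206 on HFD. MlklAdi-KO visWAT had 95.5, 122, 125 and 142 FPKM on NCD and 177, 188, 196, 204 and 215 on HFD. In both genotypes every HFD mouse was above every NCD mouse, and the HFD values were tight. Angptl4 rose by 0.86 (SE 0.15, adjusted p = 0.00139) in WT and by 0.70 (SE 0.12, adjusted p = 0.00169) in MlklAdi-KO mice. Without mice 182 and 183 the WT value was 0.62 (adjusted p = 0.000875). Of the genes tested, 21.9% were called higher in WT and 23.3% in MlklAdi-KO visWAT, and diets did not overlap for 33.4% and 38.4%. The genotypes overlapped on HFD (difference -0.03, SE 0.07, adjusted p = 0.77).

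In liver, Angptl4 was at 38.8, 68.7, 72.2 and 77.0 FPKM in WT mice on NCD and 55.7, 63.0, 73.3, 75.6 and 83.8 on HFD, which overlapped. MlklAdi-KO livers had 51.9, 61.0, 76.8 and 92.4 FPKM on NCD and 37.1, 45.0, 46.2, 48.3 and 58.2 on HFD. Angptl4 fell by 0.56 with HFD in MlklAdi-KO livers (SE 0.17, adjusted p = 0.0426), although the groups overlapped, and the call was lost when any of 7 of the 9 mice was left out, all but mice 153 and 166, with values of -0.69 to -0.42 over the 9 fits, and also without a filter on low values (adjusted p = 0.0952). The diet difference in WT liver was 0.16 (SE 0.20, adjusted p = 0.599). On HFD the genotypes differed by -0.57 (SE 0.13), with only mouse 153 inside the WT range, and limma did not call it (adjusted p = 0.122) while DESeq2 did (-0.58, adjusted p = 0.00115). The difference between the diet effects of the genotypes was -0.72 (SE 0.28, adjusted p = 0.662).

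Of 18 genes known as PPAR targets, 16 were tested in visWAT. On HFD, 5 were called higher and 3 lower in WT, and 6 higher and 3 lower in MlklAdi-KO visWAT, where 37.8% and 43.7% of all genes were called. Those with the lowest p in WT were Cpt1a (1.17, adjusted p = 8.56e-06), Hilpda, an inhibitor of intracellular lipolysis (1.68, adjusted p = 0.000166), and Plin1, the lipid droplet coat of adipocytes (-0.77, adjusted p = 0.00356). In MlklAdi-KO liver 1 of 17 was called higher and 5 lower, led by Ehhadh, a peroxisomal oxidation enzyme (-1.97, adjusted p = 1.92e-05), and Fabp1, the fatty acid binding protein of liver (-0.65, adjusted p = 0.00227). WT liver had 4 higher and 4 lower. All genes were called at 22.2% in MlklAdi-KO and 25.3% in WT liver. On HFD, 0 of 17 were called between genotypes in liver, where 0.197% of all genes were called. Their median difference was -0.47, beside 0.002 over all genes.

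Angptl6, a liver-rich relative whose part in lipolysis is less clear, varied little. The gene lies on chromosome 9 from 20785104 to 20791023 on the minus strand, and its last part shares 266 exonic bases with Shfl on the opposite strand, which was at 17.0 to 27.4 FPKM in liver. Livers had 6.92 to 12.8 FPKM of Angptl6 over the 18 mice and visWAT 0.908 to 2.09. It was called by limma in none of the diet and genotype comparisons. The nearest to the threshold was the diet difference in MlklAdi-KO visWAT, 0.28 (SE 0.10, adjusted p = 0.0504), where NCD mice had 0.945, 0.967, 1.26 and 1.46 FPKM and HFD mice 1.35, 1.47, 1.54, 1.63 and 2.09, with overlap. This difference passed the threshold with a pseudocount of 0.1 (0.45, adjusted p = 0.0451), on the TPM scale (0.40, adjusted p = 0.0402), without mouse 199 (0.34, adjusted p = 0.0311) and without mouse 153 (0.32, adjusted p = 0.0426).

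Lpl, the central lipase, was the most abundant member in visWAT and fell strongly on HFD in liver. Its position is chromosome 8 from 69333143 to 69360100 on the plus strand. In visWAT, WT mice had 467, 549, 564 and 593 FPKM on NCD and 438, 445, 447, 469.6 and 508 on HFD, and MlklAdi-KO mice had 500.1, 555, 591 and 618 and 379, 419, 439, 454 and 584. These groups overlapped, and the diet difference of -0.23 (SE 0.11, adjusted p = 0.136) in WT and -0.32 (SE 0.13, adjusted p = 0.0703) in MlklAdi-KO mice was not called. In WT it was called without mouse 183 (-0.30, adjusted p = 0.0425) and without mice 182 and 183 (-0.27, adjusted p = 0.0434), and in MlklAdi-KO mice without mouse 157 (-0.42, adjusted p = 0.0110). On the TPM scale, which gives every library the same summed level and moved the median of all genes by 0.38 for diet in WT visWAT, the WT value was 0.25 (adjusted p = 0.585). The library of WT NCD mouse 183, with its seminal vesicle markers, had a summed FPKM of 564718, against 227793 to 309820 in the other visWAT libraries. This scaling therefore lowers the other genes of that library most. DESeq2 called both genotypes (-0.27, adjusted p = 0.00921, and -0.32, adjusted p = 0.0337).

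In WT liver, Lpl was at 7.84, 8.80, 9.61 and 39.3 FPKM on NCD and 0.718, 0.760, 0.808, 1.07 and 1.61 on HFD. In MlklAdi-KO liver it was at 2.99, 6.96, 7.05 and 7.47 FPKM on NCD and 0.526, 0.539, 0.671, 0.694 and 2.24 on HFD. Every HFD liver was below every NCD liver in both genotypes. Lpl fell by 2.82 (SE 0.41, adjusted p = 0.00127) in WT and by 1.88 (SE 0.28, adjusted p = 0.00161) in MlklAdi-KO livers. The ratio of NCD to HFD means was 16.5 in WT and 6.55 in MlklAdi-KO livers. The highest WT value, 39.3 FPKM, is mouse 182, and without it the WT difference was -2.30 (adjusted p = 2.12e-05). The liver of mouse 182 also had the highest sum of 8 macrophage markers among the WT livers on NCD, 145 FPKM against 46.2 to 56.1, and its part in the Lpl value was not tested. On NCD all 4 MlklAdi-KO livers were below all 4 WT livers, and groups did not overlap for 2.8% of the genes tested. The difference of -1.02 (SE 0.48) was not called (adjusted p = 0.996), and was -0.51 without mouse 182.

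Lipc, hepatic lipase, was a liver gene in these data. It lies on chromosome 9 from 70705410 to 70859508 on the minus strand. Livers had 50.4, 93.9, 106 and 108 FPKM in WT on NCD, 71.1, 71.2, 75.1, 76.2 and 76.8 in WT on HFD, 97.5, 98.3, 108 and 113 in MlklAdi-KO on NCD and 54.9, 87.5, 95.0, 96.2 and 99.1 in MlklAdi-KO on HFD. The low values of 50.4 and 54.9 are WT NCD mouse 182 and MlklAdi-KO HFD mouse 152, and apart from these the NCD groups were at or above the level of most HFD mice. The diet difference was -0.21 (SE 0.20, adjusted p = 0.482) in WT and -0.30 (SE 0.16, adjusted p = 0.223) in MlklAdi-KO livers. Without mouse 182 the WT difference was -0.46 (adjusted p = 0.000563) and passed the threshold. On HFD, the genotypes differed by 0.19 (SE 0.14, adjusted p = 0.625), and without mouse 152 by 0.35 (adjusted p = 0.0360). The liver of mouse 152 also had the highest macrophage sum of its group, 115 FPKM against 29.4 to 45.8, and the highest sum of 4 Kupffer cell markers, 136 against 37.4 to 65.2, and their part in its Lipc and Lpl values was not tested. In visWAT Lipc was at 0.0172 to 0.978 FPKM, from 1 to 62 reads, and was left out of the tests within visWAT by the filter on low values. The highest of these values was MlklAdi-KO HFD mouse 156, whose visWAT library also had the highest sum of 6 hepatocyte markers, 705 FPKM against at most 94.7 in the other visWAT libraries.

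Gpihbp1, which holds LPL on capillary endothelium, was lower on HFD in liver of both genotypes. The gene lies on chromosome 15 from 75468477 to 75471330 on the plus strand. WT livers had 8.93, 9.25, 9.70 and 10.5 FPKM on NCD and 5.28, 6.70, 6.83, 6.93 and 7.19 on HFD. MlklAdi-KO livers had 8.37, 8.46, 8.72 and 9.41 FPKM on NCD and 5.53, 5.78, 5.89, 6.50 and 6.83 on HFD. The diets did not overlap in either genotype. Gpihbp1 fell by 0.49 (SE 0.08, adjusted p = 0.00318) in WT and by 0.46 (SE 0.07, adjusted p = 0.00184) in MlklAdi-KO livers, both calls holding without any 1 mouse. The summed level of 8 endothelial markers in liver was 34.1 to 39.4 FPKM on NCD and 24.4 to 36.9 on HFD in WT, and 35.5 to 41.7 and 28.0 to 42.1 in MlklAdi-KO mice. For diet, 0 of the markers tested was called in either genotype, beside 25.3% of all genes in WT and 22.2% in MlklAdi-KO liver. The part of this summed level in the Gpihbp1 difference was not tested.

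In visWAT, Gpihbp1 was at 41.3, 46.3, 68.3 and 84.9 FPKM in WT mice on NCD and 45.0, 49.7, 50.4, 51.0 and 54.8 on HFD, and at 53.7, 55.0, 65.3 and 76.2 and 44.1, 53.6, 82.0, 89.7 and 105 in MlklAdi-KO mice. On HFD, MlklAdi-KO mice 151, 156 and 157 were above every WT mouse and mice 152 and 153 within or below the WT range. The genotypes differed by 0.50 (SE 0.21, adjusted p = 0.224), which was not called. The diet difference in WT was -0.20 (SE 0.20, adjusted p = 0.447), and it was called without mice 182 and 183, the lowest of the WT mice on NCD (-0.60, adjusted p = 0.00241), while its sign turned on the TPM scale (0.27, adjusted p = 0.608). The sum of the endothelial markers in visWAT was 198 to 413 FPKM on NCD and 226 to 251 on HFD in WT mice, and 273 to 342 and 217 to 420.5 in MlklAdi-KO mice. In MlklAdi-KO mice on HFD it was 420.5 in mouse 156, 331 in mouse 151, 284 in mouse 157, 256 in mouse 153 and 217 in mouse 152. The mice of a group had the same order for this sum and for Gpihbp1 in every group but WT on HFD. Of the 8 markers, 3 were called lower on HFD in WT and 0 in MlklAdi-KO visWAT, where 37.8% and 43.7% of all genes were called in either direction.

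Lmf1, the maturation factor of lipases, was low in both tissues. Its position is chromosome 17 from 25798059 to 25881800 on the plus strand. It ranged from 1.26 to 2.46 FPKM in visWAT and from 2.79 to 4.56 in liver, and was called by limma in none of the diet and genotype comparisons. In visWAT, WT mice had 1.53, 1.72, 1.78 and 2.46 FPKM on NCD and 1.35, 1.38, 1.43, 1.46 and 1.59 on HFD, a difference of -0.23 (SE 0.09, adjusted p = 0.0787). The groups overlapped by 1 mouse, number 182, without which the difference was called (-0.28, adjusted p = 0.0322). The highest value is mouse 183, and without it the difference shrank to -0.13 and was not called. Over the 9 fits without 1 mouse, the adjusted p was up to 0.147. edgeR and DESeq2 called it (-0.44, adjusted p = 0.0321, and -0.42, adjusted p = 0.0171), while on the TPM scale its sign turned (0.10, adjusted p = 0.722).

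Lrp1, a large endocytic receptor that also has many ligands beside lipoproteins, was 2.43-fold higher on HFD in WT visWAT. It lies on chromosome 10 from 127374030 to 127457017 on the minus strand. WT visWAT had 20.8, 23.1, 28.5 and 34.3 FPKM on NCD and 57.7, 63.0, 66.9, 68.1 and 68.9 on HFD, without overlap. MlklAdi-KO visWAT had 30.2, 30.3, 32.2 and 34.9 FPKM on NCD and 31.8, 34.1, 43.2, 61.6 and 66.2 on HFD, where mice 152 and 153 reached the WT level and mice 156 and 157 did not leave the NCD range. Lrp1 rose by 1.27 (SE 0.14, adjusted p = 9.87e-05) in WT mice, and by 1.03 (adjusted p = 0.000149) without mice 182 and 183. The difference in MlklAdi-KO mice was 0.50 (SE 0.22, adjusted p = 0.0905), and passed the threshold without mouse 156 (0.62, adjusted p = 0.0311) and in DESeq2 (0.56, adjusted p = 0.0285). The genotypes on HFD differed by -0.51 (SE 0.20, adjusted p = 0.221), and the diet differences of the genotypes by -0.78 (SE 0.27, adjusted p = 0.326), neither of them called.

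Lrp1 and macrophage markers were both higher in WT visWAT on HFD than on NCD. The sum of 8 macrophage markers in visWAT was 187 to 283 FPKM in WT mice on NCD, 1602 to 2266 in WT mice on HFD and 244 to 417 in MlklAdi-KO mice on NCD. In MlklAdi-KO mice on HFD it was 1291 in mouse 151, 1958 in mouse 152, 2068 in mouse 153, 678 in mouse 156 and 627 in mouse 157, with mice 152 and 153 high and mice 156 and 157 low for both. Within the WT groups the order of the mice differed: on HFD, mouse 154 had the lowest sum (1602) and the second highest Lrp1 (68.1), and mouse 155 the highest sum (2266) and the second lowest Lrp1 (63.0). All 8 of these markers were called higher on HFD in WT and 7 of 8 in MlklAdi-KO visWAT, and 5 of 6 fibroblast and progenitor markers were called higher in WT and 3 of 6 in MlklAdi-KO visWAT, beside 21.9% and 23.3% of all genes called higher in WT and MlklAdi-KO visWAT. The fibroblast and progenitor sum in MlklAdi-KO mice on HFD was 658 in mouse 152, 610 in 153, 391 in 151, 311 in 157 and 254 in 156. That is the order of Lrp1 in this group, while the orders differed in the WT groups. The sum of 8 adipocyte markers was lower on HFD, at 9824 to 21204 FPKM on NCD and 4627 to 5935 on HFD in WT mice, and at 16350.5 to 20467 and 5246 to 11760.2 in MlklAdi-KO mice. On HFD, MlklAdi-KO mice 152 and 153 were at 5610 and 5246, and mice 151, 156 and 157 at 9600 to 11760.2. The part of these cell types in the Lrp1 and Gpihbp1 values was not tested.

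**Figure D3:**
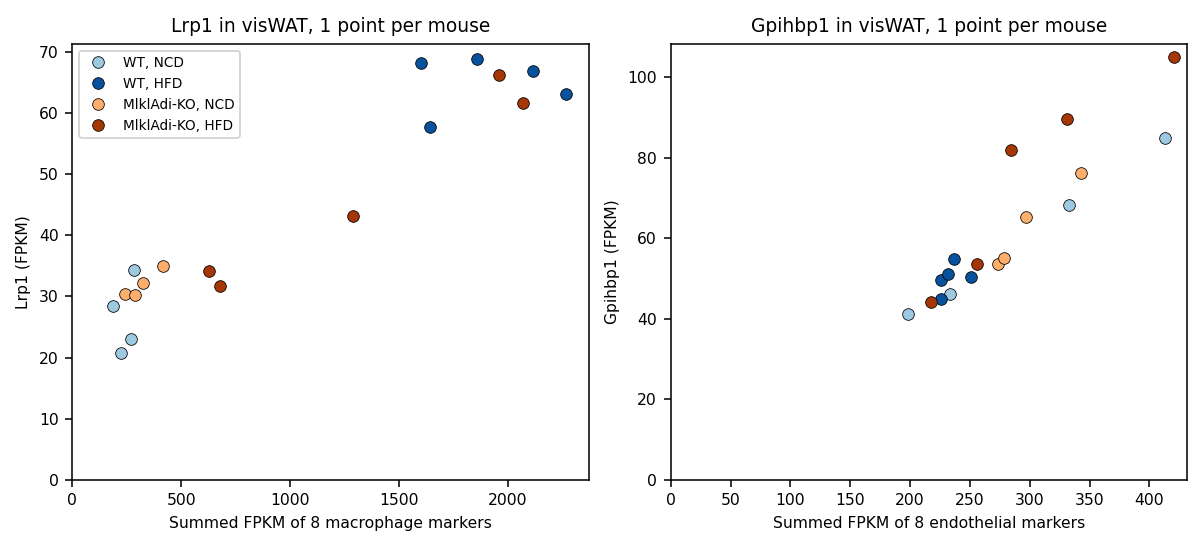
Lrp1 against the sum of 8 macrophage markers (left) and Gpihbp1 against the sum of 8 endothelial markers (right) in visWAT, in FPKM, with 1 point per mouse coloured by group. MlklAdi-KO mice 152 and 153 on HFD sit among the WT mice on HFD for Lrp1, at 66.2 and 61.6 FPKM, and mice 156 and 157 sit near the NCD mice, at 31.8 and 34.1.

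In liver, Lrp1 was even across groups, at 60.3 to 72.7 FPKM in WT mice on NCD, 68.4 to 74.8 in WT mice on HFD, 52.6 to 75.8 in MlklAdi-KO mice on NCD and 73.9 to 83.8 in MlklAdi-KO mice on HFD. It was called in none of the liver comparisons.

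Vldlr, the receptor that takes up triglyceride-rich particles in fat, was higher on HFD in visWAT. The gene lies on chromosome 19 from 27193884 to 27231631 on the plus strand. WT visWAT had 4.65, 5.82, 6.36 and 8.95 FPKM on NCD and 7.83, 8.52, 8.74, 9.63 and 10.5 on HFD, and the groups overlapped through mouse 182. MlklAdi-KO visWAT had 6.11, 6.32, 6.58 and 7.13 FPKM on NCD and 7.35, 7.62, 8.92, 9.13 and 9.25 on HFD, without overlap. Vldlr rose by 0.46 (SE 0.15, adjusted p = 0.0403) in WT and by 0.32 (SE 0.08, adjusted p = 0.0101) in MlklAdi-KO mice. The WT call was lost in edgeR (0.44, adjusted p = 0.0689) and without a filter on low values (adjusted p = 0.0764). It was also lost when any of 7 of the 9 mice was left out, all but mice 155 and 182, with an adjusted p of up to 0.0993, and held without mice 182 and 183 (0.50, adjusted p = 0.00525).

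In liver, Vldlr was near the filter, at 0.556, 0.716, 0.716, 0.805 and 0.928 FPKM in WT mice on HFD and 0.310, 0.319, 0.413, 0.455 and 0.536 in MlklAdi-KO mice on HFD. All 5 MlklAdi-KO livers were below all 5 WT livers, and groups did not overlap for 2.62% of the genes tested. The MlklAdi-KO mean of 0.407 FPKM was under the filter of 0.5. Vldlr therefore entered this comparison only through the WT livers, with a mean of 0.744 FPKM, and its separation is given as description only. Reads were 51 to 88 in MlklAdi-KO and 105 to 183 in WT livers. The difference of -0.31 (SE 0.08) was not called in limma (adjusted p = 0.185), and DESeq2 gave -0.87 (adjusted p = 0.00147). On NCD the genotypes overlapped, at 0.538, 0.658, 0.882 and 2.003 FPKM in WT and 0.388, 0.505, 0.789 and 0.838 in MlklAdi-KO livers.

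**Figure D4:**
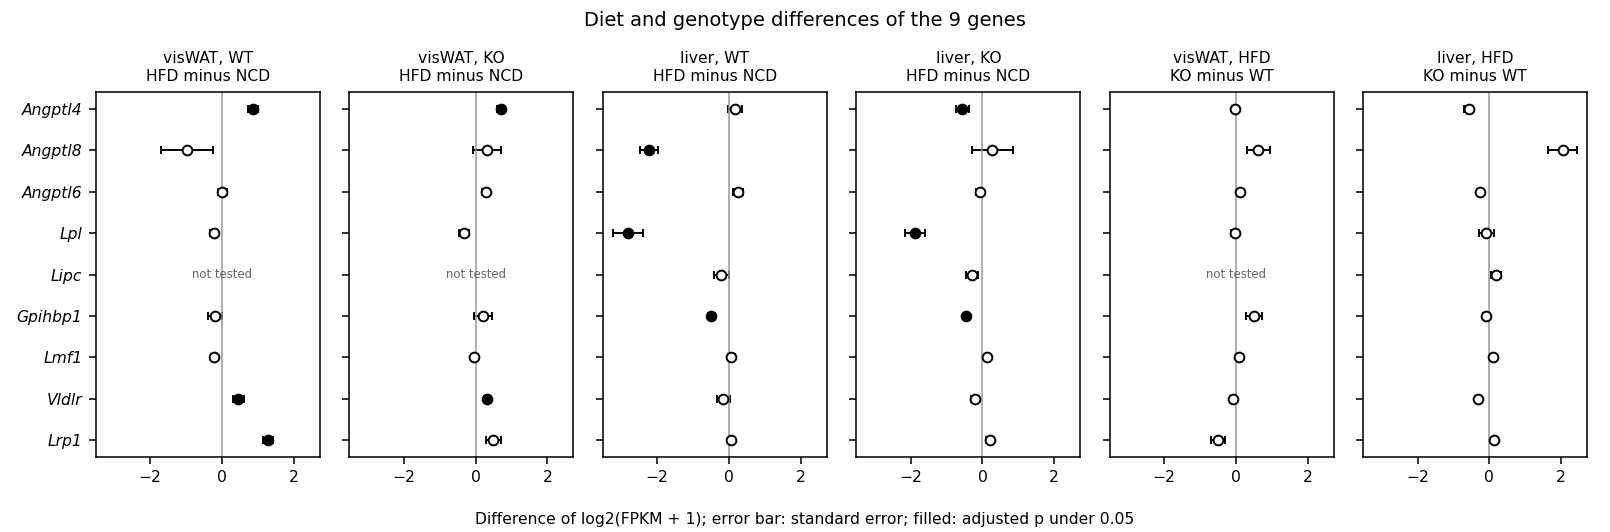
Differences of log2(FPKM + 1) with standard errors for the 9 genes in 6 comparisons, filled where the adjusted p was under 0.05; KO stands for MlklAdi-KO. Filled points are 3 and 2 genes for diet in visWAT, 3 in each genotype for diet in liver, and 0 for genotype on HFD in either tissue.

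Counted over the members, 3 of 8 tested were called for diet in WT visWAT (Angptl4, Vldlr and Lrp1, all higher), where 37.8% of all genes were called and 21.9% called higher, and 2 of 8 in MlklAdi-KO visWAT (Angptl4 and Vldlr, both higher), where 43.7% were called and 23.3% called higher. In liver, 3 of 9 were called in WT mice (Angptl8, Lpl and Gpihbp1, all lower), where 25.3% of all genes were called and 12.1% called lower. Likewise 3 of 9 were called in MlklAdi-KO liver (Angptl4, Lpl and Gpihbp1, all lower), where 22.2% were called and 10.3% called lower. The diets did not overlap for 2 of 8 members in either genotype in visWAT, beside 33.4% of all genes in WT and 38.4% in MlklAdi-KO visWAT. In liver they did not overlap for 3 of 9 members in WT and 2 of 9 in MlklAdi-KO mice, beside 24.8% and 21.5% of all genes. No member was called by limma for genotype on HFD in visWAT (0.0215% of genes called, 3003 genes at an unadjusted p under 0.05) or in liver (0.197%, 1664 genes). In visWAT on HFD, edgeR and DESeq2 called 0 members too, and the genotypes overlapped for all 8 members tested, while they did not for 3.01% of all genes. In liver on HFD, edgeR called 1 and DESeq2 3, beside 0.204% and 1.96% of all genes. The genotypes did not overlap in liver for Angptl8 and Vldlr on HFD, beside 2.62% of all genes, and for Lpl on NCD, beside 2.8%. On NCD limma called 0 members and 0 genes in visWAT (528 unadjusted; groups of 2.46% of genes did not overlap) and 0 members and 1 gene, 0.00758%, in liver (574 unadjusted), and edgeR and DESeq2 called 0 members in both tissues. The test of whether the diet effect differed between genotypes called 0 members in either tissue by limma, edgeR or DESeq2, with 0 genes called by limma in visWAT (1867 unadjusted) and 2, 0.0151%, in liver (811 unadjusted). The median difference of the members was -0.10 and 0.30 for diet in WT and MlklAdi-KO visWAT and -0.16 and -0.21 in WT and MlklAdi-KO liver, beside medians over all genes within 0.01 of 0.

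Between tissues of WT mice, the members split into an adipose and a liver set. Angptl4, Lpl, Gpihbp1 and Vldlr were higher in visWAT, and Angptl6, Angptl8, Lipc, Lmf1 and Lrp1 higher in liver, on both diets, and all 9 were called, where 65.5% of genes were called on NCD and 84.6% on HFD. On NCD 31.5% of genes were higher in visWAT and 34% in liver, and on HFD 41.6% and 43%. The tissues did not overlap for 8 members on NCD, all but Angptl8, and for 8 on HFD, all but Lrp1, beside 61.1% and 76.3% of all genes. The Angptl8 overlap came from mouse 182, at 98.2 FPKM in visWAT against 5.32 to 17.5 in the other mice and at least 90.1 in liver. Lpl was 33.1-fold higher in visWAT on NCD and 465-fold on HFD. The NCD fold includes the liver of mouse 182, at 39.3 FPKM, and the Lpl difference on NCD was 5.29 with this mouse and 5.76 without it. Gpihbp1 was 6.27-fold and 7.62-fold higher, Vldlr 6.32-fold and 12.2-fold, and Angptl4 1.74-fold and 2.85-fold. The folds of all these members depend on how the tissues are scaled. On the TPM scale the median of all genes moved by 0.55 on NCD and 0.91 on HFD toward visWAT. There Lrp1 on HFD turned from -0.14 to 0.95, and Lmf1 and Lrp1 on NCD and Angptl8 on HFD were no longer called. The Lrp1 difference on HFD was also not called by edgeR (-0.12, adjusted p = 0.269) or without 3 of the 5 mice (adjusted p of up to 0.0874). The Angptl8 call on NCD was lost in edgeR (-1.92, adjusted p = 0.0906) and without mouse 165, 180 or 183 (adjusted p of up to 0.0713) and that of Angptl4 without mouse 165 or 180 (up to 0.0823). Without mouse 182 the Angptl8 difference on NCD was -3.55 (adjusted p = 0.000591), against -2.81 with all mice.

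The diet effect differed between tissues of the same WT mice for 5 members, 4 higher and 1 lower, where 36.4% of all genes were called, 20.2% higher and 16.2% lower. The visWAT minus liver difference was larger on HFD by 2.59 for Lpl (SE 0.38, adjusted p = 0.000745), by 1.22 for Lrp1 (SE 0.13, adjusted p = 0.000113), by 0.70 for Angptl4 (SE 0.23, adjusted p = 0.0413) and by 0.62 for Vldlr (SE 0.10, adjusted p = 0.00136), and smaller for Lmf1 (-0.29, SE 0.09, adjusted p = 0.0344). The Angptl4 call was lost without any of 7 of the 9 mice, all but 154 and 182 (adjusted p of up to 0.102), and the Lmf1 call without any of 6, mice 154, 162, 164, 180, 182 and 183 (up to 0.0805). Both were lost without a filter on low values (adjusted p = 0.0826 and 0.0617). The Lmf1 call was also lost on the TPM scale (0.0061) and without mice 182 and 183 (-0.20, adjusted p = 0.147). For Angptl8 the value was 1.25 (SE 0.68, adjusted p = 0.179), and without mouse 182 it was 1.99 (adjusted p = 0.0073). For Lipc it was 0.33 (SE 0.19, adjusted p = 0.199), and it was called without mouse 182 (0.54, adjusted p = 0.00358), without mice 182 and 183 (0.63, adjusted p = 0.0025), on the TPM scale (0.67, adjusted p = 0.0433) and with a pseudocount of 0.1 (0.79, adjusted p = 0.0233).

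Of 13 other regulators of lipolysis, 5 were called higher and 0 lower on HFD in WT liver, where 25.3% of all genes were called in either direction, led by the inhibitor Apoc3 (0.38, adjusted p = 0.0111), the proprotein convertase Pcsk6 (0.72, adjusted p = 0.0121) and the activator Apoa5 (0.64, adjusted p = 0.0172). In MlklAdi-KO liver, with 22.2% of all genes called, 1 of 13 was called, Pcsk6 (0.48, adjusted p = 0.00934). In WT visWAT 2 of 11 were higher and 2 lower, beside 37.8% of all genes called, led by Sdc1, a heparan sulfate proteoglycan (1.65, adjusted p = 9.06e-06), and Apoc1 (-1.64, adjusted p = 0.000473). In MlklAdi-KO visWAT, with 43.7% of all genes called, 1 was higher, Sdc1 (1.30, adjusted p = 0.00438), and 1 lower, Pcsk6 (-0.73, adjusted p = 0.00774).

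Of 12 other genes of lipoprotein uptake, 10 were tested in each tissue for diet. The shares of all genes called in either direction were 25.3% and 22.2% in WT and MlklAdi-KO liver and 37.8% and 43.7% in WT and MlklAdi-KO visWAT. In WT liver 0 were higher and 4 lower, among them Lrpap1, the chaperone of LRP1 (-0.42, adjusted p = 0.000531), and the sorting receptor Sort1 (-1.27, adjusted p = 0.000752). In MlklAdi-KO liver 2 were lower, among them Sort1 (-1.22, adjusted p = 0.000351). In visWAT 1 was higher and 1 lower in WT, the latter Sort1 (-0.94, adjusted p = 0.000108), and 2 were higher and 2 lower in MlklAdi-KO visWAT. None of either list was called by limma between genotypes on HFD in either tissue. Of the 4 further Angptl genes, Angptl1 rose in visWAT of both genotypes (0.74, adjusted p = 0.00442, and 0.83, adjusted p = 0.000506).

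The genes most like Angptl8 within groups were found by Pearson's r of log2(FPKM + 1) after the group means were taken away, over the 18 mice of a tissue. In visWAT they were Acss2 (r = 0.96), Parm1, Ppp1r3b, Me1 and Fasn (each 0.94) out of 11071 genes, and without mouse 182 their r was 0.84 to 0.91 over 17 mice. In liver they were Bhlhe40 (0.86), Myef2 (0.83), Tbx3 (0.82), Dusp1 (0.78) and Etv3 (0.78) out of 10124 genes. For Angptl4 they were Chst14 (0.89), Fam20a, Cant1, Rbms1 and Neil2 in visWAT, and Apoa2, Lipg, St3gal5, Pim3 and Cebpb (each 0.92) in liver, the latter at 0.86 to 0.88 without mouse 182. These are descriptions over mice that share libraries and scaling across genes.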

How the data were processed

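Polyadenylated RNA of visWAT and liver was sequenced from 18 mice. Per the labels and methods, the authors used fastp for trimming, HISAT2 with the mm39 genome for alignment and featureCounts 1.5.0-p3 for counting. The strand setting, annotation release and treatment of reads that fit several genes are not given in the sources used here. The authors deposited FPKM for all genes, and raw counts for genes in their comparison tables, whose fold changes and p-values were not used, nor were 72 further columns per sample. The gene length was deposited with the FPKM.

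Library sizes behind the FPKM were obtained from genes with counts, and 100% of values gave whole reads (tolerance 0.01). The ratio of that size to the reads was 1.01 to 1.40 for visWAT libraries and 0.737 to 0.812 for liver libraries, a scaling that the deposited FPKM carry. Replicates differed beyond sampling noise in all 64 pairs (chi-square per gene of at least 9.82).

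The main test was limma 3.58.1 with trend on log2(FPKM + 1), for genes with a mean of at least 0.5 FPKM in the fit, with Benjamini-Hochberg adjustment and a threshold of 0.05, in 13 comparisons. The diet effect between tissues used differences within mice. Alternatives were edgeR 4.0.16 and DESeq2 1.42.0 on the recovered reads, a pseudocount of 0.1, no filter or a mean FPKM of 1, the TPM scale, all 4 groups in 1 fit, the mouse as a block, and leaving out mice. All tools were tested on simulated reads. Both tissues came from the same animals, so mouse numbers pair them; deviations of a mouse in the 2 tissues correlated at -0.05 to 0.06.

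All 9 members were named in every comparison. Of other lists, counts and up to 3 genes with the lowest adjusted p were named, the overlapping genes Dock6 and Shfl, and the 5 genes most like Angptl8 and Angptl4. Some genes of these lists are counted but not reported here by name. Members and lists were chosen with earlier results of these data known. Animals were separate, so replicates are biological. Coordinates are those of the deposited table, and 2 members have the same start and end in GENCODE vM39. In that annotation, lncRNA genes on the opposite strand share exonic bases with Lrp1 (Gm67009, 1271 bases), Vldlr (Gm50114, 131) and Lpl (Gm64236, 95). Gm67009 and Gm64236 are not in the expression table. As the strand setting is not given, reads on these bases cannot be told apart from those of the member.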

Additional observations from a re-analysis of the deposited data

Results flagged for a closer look

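A mouse stood apart from the rest of its group in 10 of 72 pairs of member and group, by the gap to its nearest neighbour relative to the range of the group. The cut-offs used are those passed by about 1 in 20 groups of normally distributed values. FPKM need not be normal and members share libraries, so the count was not tested against chance. Mouse 182, labelled WT NCD, accounted for Angptl8 in visWAT (98.2 FPKM against 5.32 to 17.5), Lpl in liver (39.3 against 7.84 to 9.61) and Lrp1 in liver (60.3 against 72.1 to 72.7). MlklAdi-KO NCD mouse 199 was low in liver for Lpl (2.99 against 6.96 to 7.47) and Lrp1 (52.6 against 72.0 to 75.8). MlklAdi-KO HFD mouse 152 was low for Lipc (54.9 against 87.5 to 99.1) and high for Lpl (2.24 against 0.526 to 0.694) in liver. That liver also had the highest sums of its group for macrophage (115 against 29.4 to 45.8 FPKM) and Kupffer cell markers (136 against 37.4 to 65.2). The others were MlklAdi-KO NCD mouse 166 for Angptl8 in visWAT (20.7 against 6.32 to 8.77), WT HFD mouse 161 for Gpihbp1 in liver (5.28 against 6.70 to 7.19) and MlklAdi-KO HFD mouse 156 for Lipc in visWAT (0.978 against 0.0290 to 0.116).

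The diet effect differed between visWAT and liver of WT mice, by the test within mice, for Lpl (2.59), Lrp1 (1.22), Angptl4 (0.70), Vldlr (0.62) and Lmf1 (-0.29).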

How the results depend on the processing

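Over all members, comparisons and alternatives, 418 of 468 refits of a called difference stayed called in the same direction, 48 lost the call and 2 turned. Of 1391 refits of a difference that was not called, 1307 stayed so, 31 were called and 53 changed sign. Counts of members called stayed within 1.5 times in 204 of 218 refits. DESeq2 gave no adjusted p for Lpl for diet in WT liver and for tissue on NCD.

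For diet in WT visWAT, 6 members were called by DESeq2 and 5 without WT NCD mice 182 and 183, against 3. Over all genes these fits called 44.4% and 52.1%, against 37.8%. For diet in MlklAdi-KO visWAT, DESeq2 called 4 and the fit of all 4 groups 4, against 2, with 48.5% and 41.5% of all genes called, against 43.7%. For genotype on HFD in liver, edgeR called 1 and DESeq2 3, against 0, and leaving out 1 mouse gave 0 to 1, with 1 without mouse 152 or 156. Over all genes, edgeR called 27 (0.204%) and DESeq2 259 (1.96%) there, against 26, and DESeq2 called 146 against 3 in visWAT. The tissue by diet difference had 3 members without a filter on low values and 3 with no replicate block, against 5, and 3 to 6 when 1 mouse was left out. Without the filter 16.6% of all genes were called and with no block 40.0%, against 36.4%. Mouse numbers pair the tissues only: with the mouse as a block, 9 members were called for tissue on each diet, as without it, and 8989 and 12304 genes against 9527 and 12414. The pairing changed no other call than those of Lmf1 and Vldlr in the tissue by diet difference.

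On the TPM scale these differences changed sign: Angptl6 (0.39), Lpl (0.25), Gpihbp1 (0.27) and Lmf1 (0.10) for diet in WT visWAT, where the median of all genes moved by 0.38. The WT NCD group there holds mouse 183, with a summed FPKM of 564718 against 227793 to 309820 in the other visWAT libraries. The part of that library in the sign changes was not tested. For genotype on NCD in visWAT the differences that changed sign were Angptl6 (0.082) and Lmf1 (0.17). For the diet by genotype interaction they were Gpihbp1 (-0.082) and Lmf1 (-0.15) in visWAT and Gpihbp1 (-0.012) in liver. Between tissues they were Lrp1 on HFD (0.95) and, for tissue by diet, Angptl6 (0.11) and Lmf1 (0.0061). For genotype on NCD in visWAT, Vldlr turned with edgeR (-0.0055) and DESeq2 (-0.019). Without mice 182 and 183, Angptl6 for diet in WT visWAT (0.012), Angptl4 (-0.12) and Gpihbp1 (-0.29) for genotype on NCD in visWAT, Angptl4 for the visWAT interaction (0.085) and Gpihbp1 for tissue by diet (-0.15) turned.

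None of the differences that turned when 1 mouse was left out was called. For diet in WT liver the ranges were -0.059 to 0.26 for Angptl4, -0.035 to 0.13 for Lmf1, -0.012 to 0.076 for Lrp1 and -0.28 to 0.045 for Vldlr. For diet they were also -0.10 to 0.65 for Angptl8 in MlklAdi-KO liver, -0.075 to 0.019 for Lmf1 in MlklAdi-KO visWAT and -0.083 to 0.081 for Angptl6 in WT visWAT. For genotype on HFD they were -0.068 to 0.0020 for Angptl4 and -0.13 to 0.029 for Lpl in visWAT, and -0.29 to 0.011 for Lpl in liver. For genotype on NCD in liver they were -0.074 to 0.28 for Angptl4, -0.066 to 0.19 for Angptl6, -0.070 to 0.097 for Lmf1 and -0.091 to 0.094 for Lrp1. For genotype on NCD in visWAT they were -0.0010 to 0.25 for Angptl4, -1.16 to 0.17 for Angptl8, -0.058 to 0.28 for Gpihbp1, -0.010 to 0.12 for Lpl and -0.076 to 0.20 for Vldlr. For the interaction in liver they were -0.036 to 0.063 for Gpihbp1, -0.19 to 0.17 for Lipc and -0.25 to 0.072 for Vldlr. The cause was not tested for any of these changes.

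Groups of 4 and 5 mice, the unknown feeding state, the WT NCD libraries 182 and 183, and the few reads of Lipc in visWAT limit these values.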
